A study of Danaus plexippus with 36 samples.

Results

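A set of 36 genes, out of 15130 in the deposited table, had mean transcript levels in the antennae and the legs of adult monarch butterflies (Danaus plexippus) at least 4 times those in the proboscis. The rule that chose them took each gene's mean CPM (the count divided by the library total, times 1000000) over the libraries of a tissue, plus 0.1. A gene was kept where the antennal and the leg means were both at least 2, both at least 4 times the proboscis mean, and less than 4-fold apart. The tissue means therefore chose the genes, and differences between tissues over all libraries are given for them as a description. The genes carry identifiers only: 0 of the identifiers matched the gene name table that was used, and the deposited table pairs them with no name. No role, family, location or sequence is given for any of them, and the labelled tissues could not be checked against marker genes.

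The antenna is the chief organ of smell in a butterfly, and its sensilla house olfactory receptor neurons. The tarsi of the legs carry contact chemosensory sensilla, with which egg-laying females taste the surface of a leaf when they look for a host plant. The proboscis is the coiled feeding tube formed by the mouthparts, and it has gustatory sensilla of its own and muscles that drive its movement.

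The study used field-caught adults, 6 gravid females and 6 males, and compared their antennae, legs and proboscis between tissues and between the sexes with chemosensory genes in view. Every female was gravid, so sex and reproductive state cannot be told apart. The animals fell into 2 batches by the labels, each with 3 females and 3 males, and each library came from 1 tissue of 1 animal. Counts were used for 11 antennal libraries (6 from females and 5 from males), 12 leg libraries and 12 proboscis libraries; the antennae of male 2 were not analysed here.

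Library totals ran from 0.622 to 24.7 M (units of 1000000 counts) for antennae, from 11.7 to 117 M for legs and from 1.92 to 53.7 M for proboscis. The leg libraries of batch 2 held 35.6 to 117 M and those of batch 1 held 11.7 to 15.2 M, so that depth and batch cannot be told apart in legs. The leg library of female 27 stood apart from the other leg libraries on the 36 genes. It was the lowest of the 12 leg libraries for 19 of them, against 10.9% of all genes tested, and lay below the mean of the other leg libraries by a median of -3.35 on the log2 scale over the 36 genes, against -0.06 over all genes tested. Across all genes tested, the log2 CPM of this library had a Pearson r of 0.937 with the proboscis of the same female and of 0.938 with the closest other leg library. In the other animals the leg and proboscis libraries of 1 animal had an r of 0.695 to 0.924. Whether this library was mislabelled or holds RNA of another tissue was not tested, and its values are given under its label. It is the lowest leg value printed for several genes, and some of the counts and medians that involve legs are also given without it. Those of legs over proboscis and of antennae against legs are given only with it or with a whole animal left out.

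As a group the 36 genes took up 0.961% ± 0.883 of all counts in antennae (SD, n = 11), 0.680% ± 0.386 in legs (n = 12) and 0.0476% ± 0.0519 in proboscis (n = 12). Without the leg library of female 27 the share in legs was 0.735% ± 0.353 (n = 11). A single gene, DPOGS204891, made up most of this. The other 35 genes took up 0.331% ± 0.282 of antennal, 0.173% ± 0.106 of leg and 0.00578% ± 0.00244 of proboscis counts. Between 24 and 36 of the genes had a count in an antennal library (median 34), between 34 and 36 in a leg library (median 35.5) and between 12 and 30 in a proboscis library (median 25.5). These numbers of detected genes also depend on depth, which differed between the tissues. In tissue RNA, fewer cells of a type and less RNA per cell cannot be told apart.

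The levels of the set covered more than 3 orders of magnitude on the scale of the rule. The mean ran from 3.30 to 6304 CPM in antennae (median 26.03), from 2.11 to 5072 CPM in legs (median 17.1) and from 0.112 to 418 CPM in proboscis (median 0.805). The smaller of the antennal and leg means exceeded 100 CPM for 4 genes, lay between 10 and 100 CPM for 21 and was below 10 CPM for 11. It was at least 100 times the proboscis mean for 8 genes, 10 to 100 times for 12 and less than 10 times for 16. The antennal mean was the higher for 29 genes and the leg mean for 7.

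The limits of the rule cut through a continuous range. The gene nearest inside the 4-fold limit averaged 31.0 CPM in antennae, 13.1 CPM in legs and 3.18 CPM in proboscis, a ratio of 4.12. The nearest gene outside it averaged 6.08 CPM in antennae, 3.89 CPM in legs and 0.977 CPM in proboscis, a ratio of 3.98. At the limit between antennae and legs the nearest gene inside had means 3.62-fold apart and the nearest outside had means 4.75-fold apart.

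**Figure D1:**
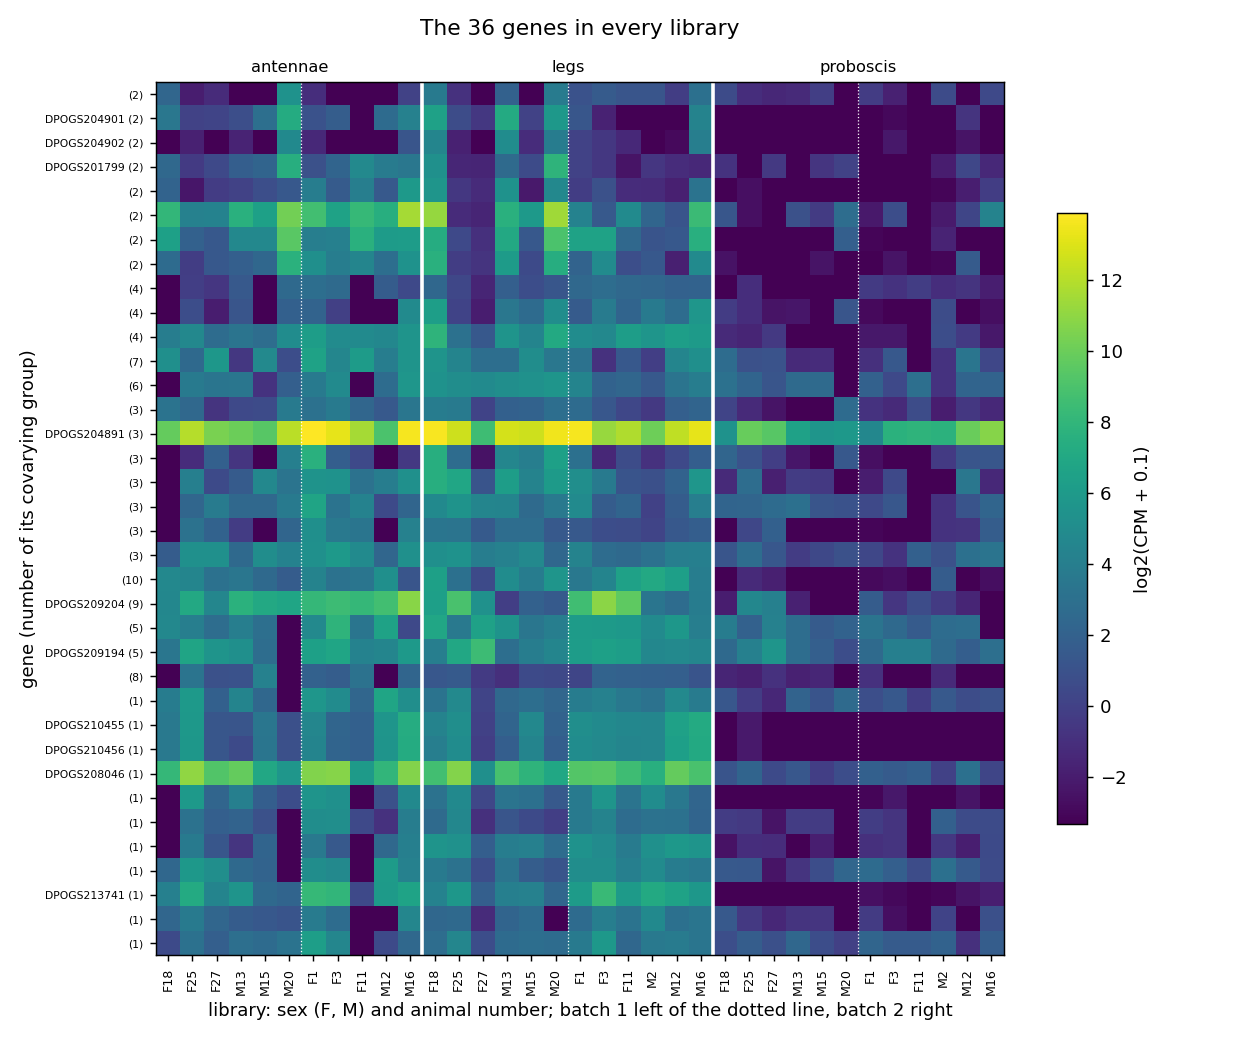
Level of each of the 36 genes (rows, ordered by how alike they vary over antennae and legs) in every library (columns, grouped by tissue), as log2(CPM + 0.1) in colour. Antennal and leg libraries are brighter than proboscis libraries for most genes, the leg library of female 27 is dim for 19 genes that are lowest there, and blocks of genes brighten together in single animals.

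Values of single libraries overlapped between tissues for most of the set. All antennal libraries lay above all proboscis libraries for 5 of the 36 genes, against 74 of the 11804 genes tested (0.627%), and all leg libraries did for 7 genes, against 97 (0.822%). Both held for 5 genes, against 7 of all genes tested (0.0593%). Without the leg library of female 27 the leg count was 10, against 110 of all genes tested (0.932%), and both held for 5 genes, against 7. A count was present in every antennal library for 16 genes, in every leg library for 32 and in every proboscis library for 7, while 9 genes had a count in fewer than 6 of the 12 proboscis libraries. For 13 genes a single antennal library held more than 50% of the summed antennal CPM, and for 3 genes a single leg library held more than 50% of the leg sum. A tissue mean of these genes is therefore often set by 1 animal, and the lowest, median and highest library are given below. The counts of detected genes and of genes with most of a sum in 1 library are descriptions, with no share over all genes beside them. Depth differed, at 0.622 to 24.7 M for antennae and 11.7 to 117 M for legs, so differences in detection between tissues cannot be told apart from depth.

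From here on CPM values use library sizes scaled with TMM, edgeR's trimmed mean of log ratios. DPOGS204891 was the most abundant member. It had 520 CPM in the lowest antennal library, a median of 3041 CPM and 15098 CPM in the antennae of female 1. In legs it had 373 CPM in female 27, a median of 6169 CPM and 13430 CPM in female 18, and in proboscis 24.9, 207 and 1733 CPM. The antennal and leg values overlapped with the proboscis values. The fitted log2 change (edgeR, joint fit of the 35 libraries) was 3.31 ± 0.72 (SE) for antennae over proboscis and 4.07 ± 0.74 for legs over proboscis.

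DPOGS208046, the second in abundance, had no overlap between either tissue and proboscis. Its lowest, median and highest values were 53.1, 579 and 2042 CPM in antennae, 38.3, 438 and 1626 CPM in legs, and 0.7998, 2.28 and 8.16 CPM in proboscis. A count was present in each of the 12 proboscis libraries, so the low level there was measured and was not set by a detection limit. The fitted log2 change was 8.17 ± 0.72 for antennae over proboscis and 7.53 ± 0.70 for legs over proboscis.

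The largest ratio of the smaller mean to the proboscis mean was 486, for DPOGS213741. It had 1.26 CPM in the antennae of female 11, a median of 47.2 CPM and 299 CPM in the antennae of female 1. In legs it had 3.64, 54.3 and 317 CPM, the highest in female 3. In proboscis it had 10 counts in all, spread over 5 of the 12 libraries, and no library above 0.177 CPM. Each antennal and leg library lay above each proboscis library, and the fitted log2 change was 11.23 ± 0.86 for antennae and 10.74 ± 0.84 for legs.

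DPOGS210455 followed with a ratio of 273, over a proboscis mean of 0.112 CPM that is mostly the added 0.1. It had 1.76, 10.5 and 161 CPM in antennae and 0.910, 25.3 and 148 CPM in legs as the lowest, median and highest library; male 16 was the highest in both tissues. In proboscis it had 2 counts, both in female 25. The ratio of summed counts per summed library size to proboscis was 3105 for antennae, with an exact 95% interval of 859 to 25652 that covers counting error only. For legs it was 6233 (1725 to 51470). By this measure DPOGS213741 had 3313 for antennae and 2329 for legs, so the order of the 2 genes depends on the added 0.1. DPOGS210456, the next identifier, had nearly the same values as DPOGS210455. These were 1.35, 10.2 and 153 CPM in antennae, 0.827, 22.99 and 139 CPM in legs, and 2 counts in the proboscis of the same female.

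**Figure D2:**
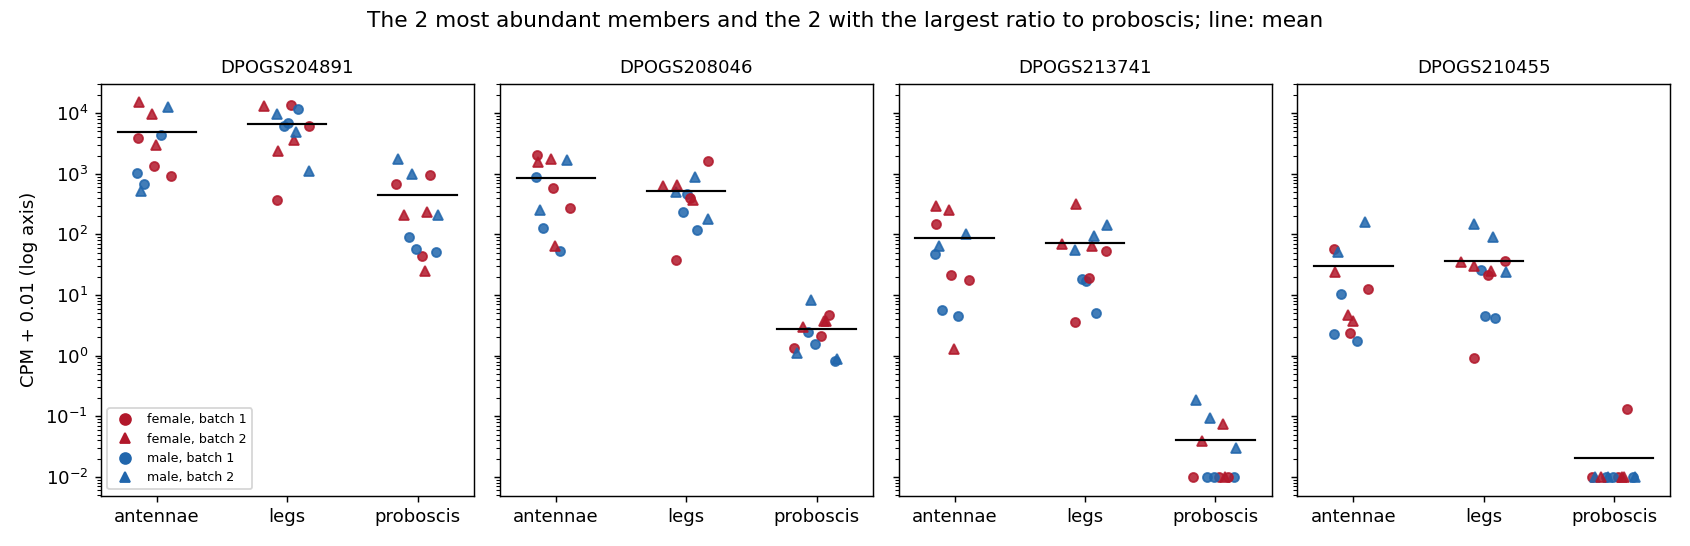
CPM + 0.01 on a log axis in antennae, legs and proboscis for the 2 most abundant members and the 2 with the largest ratio to proboscis; each point is a library, coloured by sex, with a shape for the batch, and the line is the mean. DPOGS208046, DPOGS213741 and DPOGS210455 show a gap between proboscis and the other tissues, while the antennae of DPOGS204891 reach down to 520 CPM and its proboscis up to 1733 CPM.

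In the joint fit, 34 of the 36 genes were called higher in antennae than in proboscis at an adjusted p below 0.05, against 11.4% of all genes tested, and 34 were called higher in legs than in proboscis, against 12.6%. The rule used both contrasts, so nothing is read from these counts. All 36 genes passed the filter on low counts. The median log2 change over the 36 genes was 3.72 for antennae (range 1.76 to 11.52) and 4.42 for legs (2.07 to 11.69), beside medians of -0.02 and 0.01 over all genes tested. The comparisons share the proboscis libraries.

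Whether genes picked in this way are also lower in proboscis than in antennae and legs in other butterflies was tested. The choice was made in the animals of 1 batch and the measurement in the animals of the other. The rule picked 31 genes from the libraries of batch 1, of which 22 belong to the 36. In the 17 libraries of batch 2 they could all be tested, and 19 of the 31 (61.3%) were called higher than proboscis both in antennae and in legs (edgeR, adjusted over all genes tested), against 0.443% of the 12870 genes tested. For antennae alone 23 were called, against 4.33%, and for legs alone 21, against 3.99%. The fitted change was positive in both tissues for 29 of the 31 genes, with a median log2 change of 5.91 in antennae (range -1.16 to 12.98) and 4.17 in legs (0.40 to 13.67), and 0 were called in the opposite direction. The count of 19 fell to 11 without female 3 and to 12 without female 1 or without male 16, given without the share over all genes.

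The reverse choice gave fewer calls. The rule picked 39 genes from batch 2, of which 26 belong to the 36, and 37 of them could be tested in the 18 libraries of batch 1. Of the 39, 14 (35.9%) were called higher than proboscis in both tissues, against 0.362% of the 11595 genes tested. For antennae alone 17 were called, against 7.35%, and for legs alone 19, against 5.51%. The change was positive in both tissues for 36 of the 37 genes, with a median log2 change of 2.76 in antennae (range -1.40 to 11.59) and 3.38 in legs (0.34 to 12.00), and 0 were called in the opposite direction. The count of 14 fell to 9 without male 13, without male 15 or without male 20, given without the share over all genes.

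The lists of the batches shared 15 genes, which is 48.4% of the batch 1 list and 38.5% of the batch 2 list, and all 15 belong to the 36. Of these 15, 12 were called in both held-out tests. Of the 36 genes, 18 were picked in 1 batch only and 3 in neither.

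DPOGS210455, picked in batch 1, had 49.0 ± 65.7 CPM in the antennae (SD, n = 5), 58.9 ± 50.5 CPM in the legs (n = 6) and 0 counts in the 6 proboscis libraries of batch 2. Set against a floor of 3 counts over the proboscis group, it was at least 1911-fold higher in antennae and at least 3367-fold higher in legs; without the antennae of male 16 the antennal bound was 1269-fold. Its fitted log2 changes were 12.98 ± 1.12 in antennae and 13.67 ± 1.12 in legs, which depend on the prior count where proboscis is at 0. DPOGS210456 was at least 1763-fold higher in antennae and at least 3105-fold higher in legs.

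DPOGS213741, picked in batch 2, had 40.8 ± 54.6 CPM in antennae, 19.6 ± 18.3 CPM in legs (SD, n = 6 each) and 0 counts in the 6 proboscis libraries of batch 1. It was at least 1388-fold higher in antennae and at least 517-fold higher in legs (adjusted p = 0.000214 and 0.00153, edgeR). Without the libraries of female 25, the highest in both tissues, the bounds were 545-fold in antennae and 291-fold in legs. DPOGS204901, also picked in batch 2, had 29.4 ± 61.1 CPM in antennae, 49.6 ± 60.0 CPM in legs and 0 counts in proboscis in batch 1. Its bound of 345-fold in antennae was 76.0-fold without male 20, its bound of 1049-fold in legs was 640-fold without male 13, and its call was lost without male 13, female 18 or male 20.

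**Figure D3:**
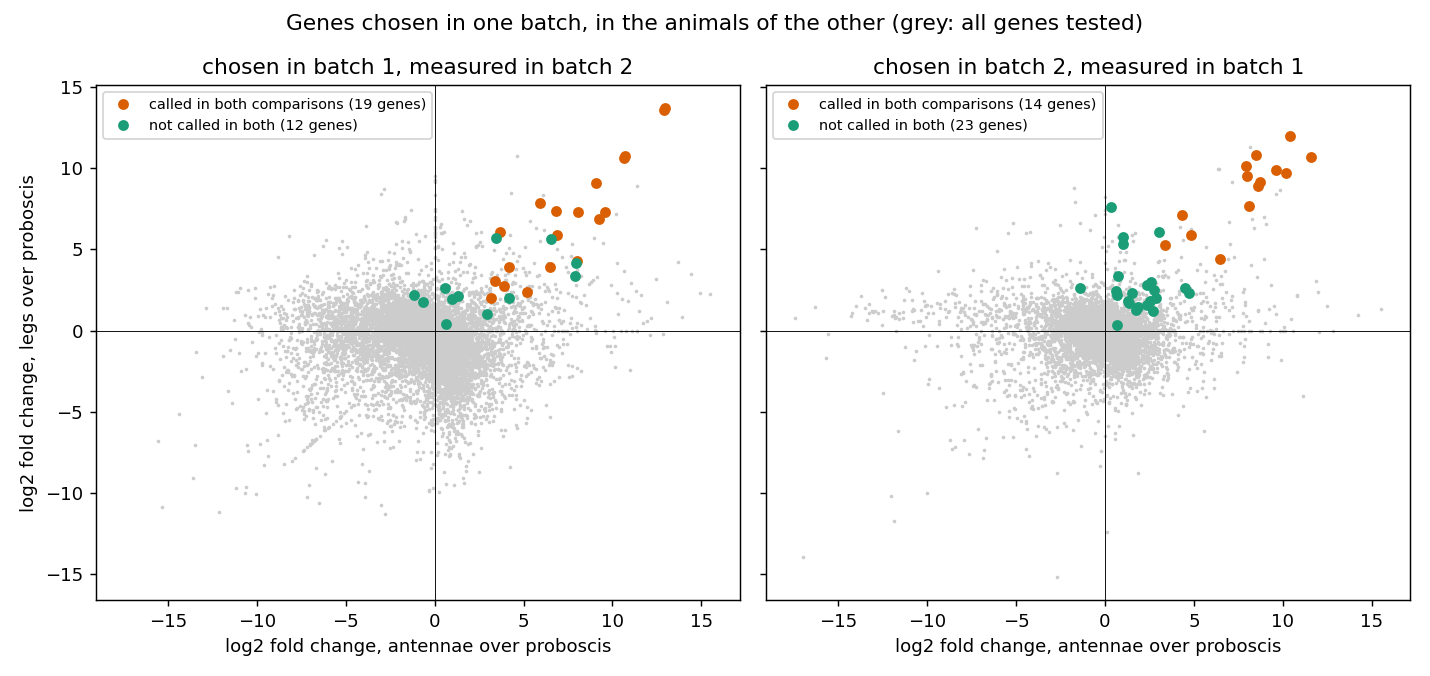
Fitted log2 fold change of antennae over proboscis (x axis) and of legs over proboscis (y axis) in the animals of the batch that was not used to pick the genes; grey points are all genes tested and coloured points the picked genes. Of the 31 genes picked in batch 1, 29 lie above 0 on both axes in batch 2, and 36 of the 37 tested genes picked in batch 2 do so in batch 1.

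Between antennae and legs, 1 of the 36 genes was called higher in antennae and 5 were called lower, against 51.5% of all genes tested called in either direction. The rule held this difference below 4-fold in the means, so the count is a description. The median log2 change was -0.10 (range -2.74 to 2.27), beside 0.00 over all genes. The number called was 2 without male 13 and 2 without female 18, given without the share over all genes.

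The gene above legs in the fit was DPOGS209204, at a log2 change of antennae over legs of 2.27 ± 0.64, given as a description. The sexes gave different values. In females alone the log2 change of antennae over legs was -1.72, and in males alone it was 6.30; the test of this difference between the sexes is given with the results on sex.

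The largest change in the other direction belonged to DPOGS204902, at -2.74 ± 1.14, likewise a description. It had 0, 0 and 28.3 CPM as the lowest, median and highest antennal library and 0, 0.478 and 33.2 CPM in legs, the highest in the antennae of male 20 and in the legs of male 13. The tissues overlapped over their whole range. The fitted value was -1.23 without female 18 and -0.98 with limma voom. It passed the threshold of the fit by a narrow margin and did not with the animal as a replicate block (-2.59) or without female 3, male 12, male 13, male 16, female 18, female 25 or female 27, among 12 of 20 alternative settings in which it did not pass.

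The rule pooled the sexes, and females were compared with males in each tissue. Applied to the libraries of females alone the rule kept 31 of the 36 genes, applied to those of males alone it kept 24, and it kept 19 in both. A gene that met the rule through the sex in which it is high is more likely to differ by sex, so the counts of members are descriptions. Of the 36 genes 1 was called in legs, where 3 of 10598 genes were called (0.0283%), and it was higher in females. In antennae 0 of the 33 members that passed the filter were called, where 0 of 10037 genes were called (0.0%). An unadjusted p below 0.05 (edgeR) was found for 3 of the 33 members, beside 231 of the 10037 genes. In proboscis 0 of the 13 members that passed the filter were called, where 0 of 10416 genes were called (0.0%). An unadjusted p below 0.05 (edgeR) was found for 1 of the 13 members, beside 94 of the 10416 genes. DESeq2 and limma voom also called 0 members in antennae and 0 in proboscis. In legs DESeq2 called 2 and limma voom called 1, given without the share over all genes.

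The gene called in legs was DPOGS209204, with p-values adjusted over all genes tested. It met the rule in females alone and not in males alone, since male legs lay more than 4-fold below male antennae. The pooled choice therefore rested in part on the female legs that this test compares, which limits what the p shows. The lowest, median and highest values of DPOGS209204 in female legs were 41.0, 448 and 1864 CPM, against 0.813, 5.33 and 14.9 CPM in male legs. Every female leg library lay above every male leg library. The means were 609 ± 671 CPM in females and 6.59 ± 5.24 CPM in males (SD, n = 6 each), and the mean of the females was 358 CPM without the leg library of female 3. The fitted log2 change was 6.48 ± 0.73 (adjusted p = 0.00733, edgeR), and it ran from 5.76 to 6.69 when each animal was left out in turn, with the call kept each time. Within batch 1 it was 6.39 (adjusted p = 0.318) and within batch 2 it was 6.54 (adjusted p = 0.197).

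The antennae of the same animals gave other values. In female antennae DPOGS209204 had 23.996, 206 and 359 CPM as the lowest, median and highest of 6 libraries, and in male antennae it had 112, 134, 203, 408 and 1806 CPM. The sexes overlapped, and all 5 male libraries lay above the lowest female library. The fitted log2 change of females over males was -1.54 ± 0.51 (unadjusted p = 0.0103, adjusted p = 0.999, edgeR). The mean of the male antennae was 533 CPM, and 214 CPM without male 16.

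The sex difference in legs minus that in antennae was 8.01 ± 1.37 on the log2 scale (adjusted p = 0.0176, edgeR). DPOGS209204 was the gene called in this test among the 36, and 1 of the 11804 genes tested was called (0.00847%). Its choice rested in part on the female legs that this test compares, which limits what the p shows. The difference was 7.65 within batch 1 (adjusted p = 0.523) and 8.33 within batch 2 (adjusted p = 0.151). Leaving out 1 animal at a time gave 7.47 to 8.19, and the call was lost without female 11 (adjusted p = 0.0516), male 12 (0.0561), male 15 (0.0737) or male 16 (0.108).

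In proboscis DPOGS209204 had 0.161, 2.30 and 25.4 CPM in females, against 0, 0.103 and 0.703 CPM in males. The sexes overlapped, with the proboscis of female 25 and female 27 far above the rest at 25.4 and 17.7 CPM. The gene did not pass the filter on low counts within proboscis and was not tested there. In an alternative with the filter taken over all 6 groups of tissue and sex, the log2 change of females over males was 4.55 ± 1.48 (unadjusted p = 0.00857, adjusted p = 1.00, edgeR).

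**Figure D4:**
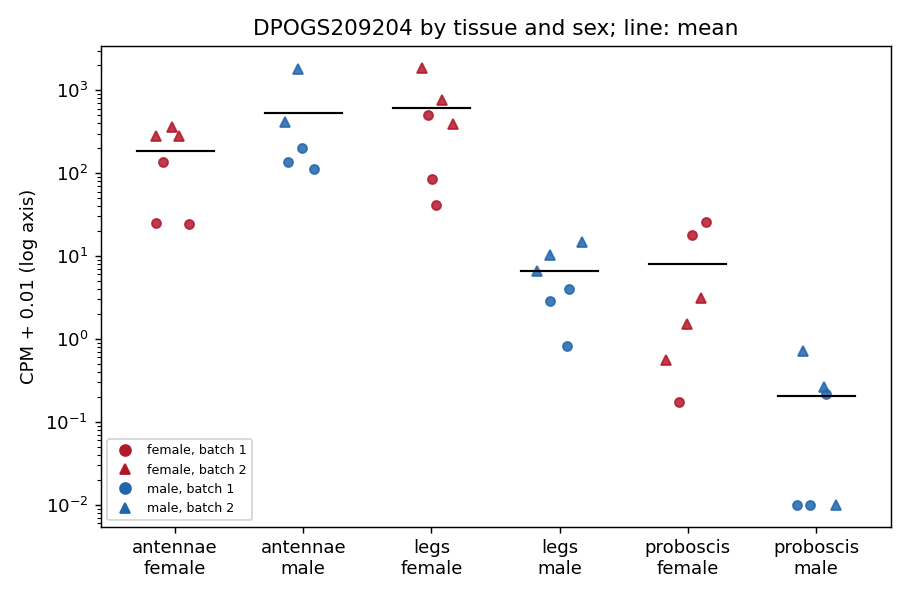
CPM + 0.01 of DPOGS209204 on a log axis by tissue and sex, with a point for each library, a shape for the batch and a line at the mean. The 6 male leg libraries lie between 0.813 and 14.9 CPM, all below the 6 female leg libraries at 41.0 to 1864 CPM, while the 5 male antennal libraries lie between 112 and 1806 CPM.

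The member with the smallest p in the proboscis was DPOGS209194, which was not called. Its values in the proboscis were 5.81 to 50.2 CPM in females, against 1.58 to 7.54 CPM in males, with overlap. The log2 change was 1.93 ± 0.59 (unadjusted p = 0.00582, adjusted p = 1.00, edgeR). In legs the same gene had a log2 change of 2.55 ± 0.61 that was not called (adjusted p = 0.404); its highest leg library was that of female 27, at 352 CPM.

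The rule pooled the batches too, and 18 of the 36 genes met it in 1 batch only, so the counts by batch are descriptions. In legs 7 of the 36 genes (19.4%) were called between batch 2 and batch 1, against 44.8% of all genes tested there, 3 of them higher in batch 2 and 4 lower. The median log2 change over the 36 was -0.49 (range -6.18 to 2.57), beside 0.15 over all genes. The number called was 12 without male 16, 12 without female 25 and 9 without the leg library of female 27 alone, and it was 8 when the leg libraries were thinned to the smallest leg total. The shares over all genes in these settings are not given, so nothing is read from the change in number. In antennae 0 of 33 members were called by edgeR, where 1 of all genes was called (0.00996%). An unadjusted p below 0.05 (edgeR) was found for 5 of the 33 members, beside 754 of the 10037 genes. DESeq2 called 1 member and limma voom 0, given without the share over all genes. The fitted change in antennae was positive for 30 of the 33, with a median log2 change of 1.37, beside 0.02 over all genes. In proboscis 0 of 13 were called by edgeR, DESeq2 or limma voom, and edgeR called 0.0% of all genes. An unadjusted p below 0.05 by edgeR was found for 0 of the 13, beside 417 of the 10416 genes.

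DPOGS213741 had the largest positive batch change in legs. It had 54.4 to 317 CPM in the 6 leg libraries of batch 2, against 3.64 to 54.2 CPM in those of batch 1, with no overlap by a narrow margin. The log2 change was 2.57 ± 0.61 (adjusted p = 0.00570, edgeR), and the gene met the rule in each batch. The largest negative change was that of DPOGS201799, with 0.0876 to 0.969 CPM in batch 2, against 0.248 to 232 CPM in batch 1. The batches overlapped, since the leg libraries of male 20 and female 18 held 232 and 39.9 CPM and the other leg libraries of batch 1 held 0.248 to 6.09 CPM. This gene met the rule in batch 1 and not in batch 2, where its leg mean was below the limit of 2, so its log2 change of -6.18 ± 1.59 is a description; the fit called it, and did not without female 18.

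The spread from animal to animal was larger for the 36 genes than for the median gene, which is a description. The rule used means, which 1 high library can lift, so it can favour genes with a large spread. The 36 genes were not matched in level to the other genes. Counts of 0 also widen an SD on a log2 scale, and 16 of the 36 genes had a count in every antennal library. Antennal levels had a median SD over animals of 2.52 on the scale of log2(CPM + 0.1), beside 1.13 over all genes tested. The SD was 1.82 for leg levels, beside 0.806 (1.52 without the leg library of female 27, beside 0.794), and 1.47 for proboscis levels, beside 0.921. The highest antennal value belonged to female 1 for 10 of the 36 genes (12.3% of all genes tested), to male 16 for 9 (9.56%) and to male 20 for 7 (11.99%). The highest leg value belonged to female 18 for 11 of the 36 genes (5.38% of all genes tested).

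Antennal and leg levels of the same animal went together somewhat more for these genes than for the median gene. The rule required both means to be high and less than 4-fold apart, so it can favour genes that 1 animal lifts in both tissues. DPOGS201799, for instance, had 70.5% of its antennal and 82.0% of its leg CPM in male 20. The comparison with all genes is therefore not free of the choice. After the means of sex and batch were removed, the Pearson r over 11 animals between antennal and leg levels had a median of 0.376 over the 36 genes (range -0.312 to 0.926), beside 0.165 over all genes tested. It was positive for 32 of the 36, and above 0.5 for 12, against 17.2% of all genes. Without female 27 the median over 10 animals was 0.443, beside 0.159 over all genes. Between antennae and proboscis the median was 0.178 over the 36 genes, beside 0.276 over all genes, and between legs and proboscis 0.248, beside 0.374. Without the leg library of female 27 the median between legs and proboscis was 0.233, beside 0.371. These values are descriptions with no p, and counts near 0 in proboscis limit those for that tissue.

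The genes were then grouped by how alike they varied over the 23 antennal and leg libraries, using the deviation of log2(CPM + 0.1) from the tissue mean and average linkage at a distance (1 minus r) of 0.5. This gave groups of 11, 8, 7, 3 and 2 genes and 5 genes alone, and the grouping is a description of these libraries. DPOGS209204 was among the 5 that stood alone. The group of 11 held DPOGS208046, DPOGS213741, DPOGS210455 and DPOGS210456 and had a median pairwise r of 0.657. Its mean log2 deviation was highest in the antennae of female 1 (2.51), female 25 (2.37) and male 16 (2.35) and lowest in the antennae of female 11 (-3.54) and in the legs of female 27 (-3.24). In the antennae of female 11, a library of 0.622 M counts, 6 of the 11 genes had a count, so the value there was set in part by the 0.1 added to 0. The summed level of these 11 genes ran from 74.2 to 2534 CPM in antennae, from 53.2 to 1910 CPM in legs and from 4.12 to 21.2 CPM in proboscis. Proboscis did not overlap with the other tissues on this sum, which rests largely on DPOGS208046 where antennae and legs are lowest. That gene held 53.1 of the 74.2 CPM in the antennae of male 20 and 38.3 of the 53.2 CPM in the legs of female 27. In the proboscis of male 2, the highest sum there, it held 0.884 of the 21.2 CPM. The non-overlap is therefore not shown for the other genes of the group.

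The group of 8 genes, which held DPOGS201799, DPOGS204901 and DPOGS204902, had a median pairwise r of 0.715 and was high in few animals. In male 20 its mean log2 deviation was 4.27 in antennae and 4.81 in legs, and in male 16 it was 2.32 in antennae and 2.34 in legs. In legs alone it was also high in female 18 (4.55) and male 13 (3.46), whose antennae had 0.59 and -0.96. It was low in the legs of female 27 (-3.58) and male 12 (-3.01). The summed level of the group ran from 26.1 to 3246 CPM in antennae, from 2.32 to 3832 CPM in legs and from 0 to 23.3 CPM in proboscis, so that the lowest leg libraries lay within the range of proboscis.

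Another group of 7 genes held DPOGS204891 and had a median r of 0.606. It was highest in the antennae of female 1 (3.14) and in the legs of female 18 (2.36), and lowest in the antennae of female 18 (-3.40) and in the legs of male 2 (-2.37). By this mean, female 18 was at opposite ends of the group in antennae and in legs. In the antennae of female 18, 3 of the 7 genes had a count, so the low mean there was set in part by genes without a count. DPOGS204891 had 907 CPM in that library, above the 520 CPM of the lowest antennal library. The contrast is therefore not shown for each gene of the group.

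**Figure D5:**
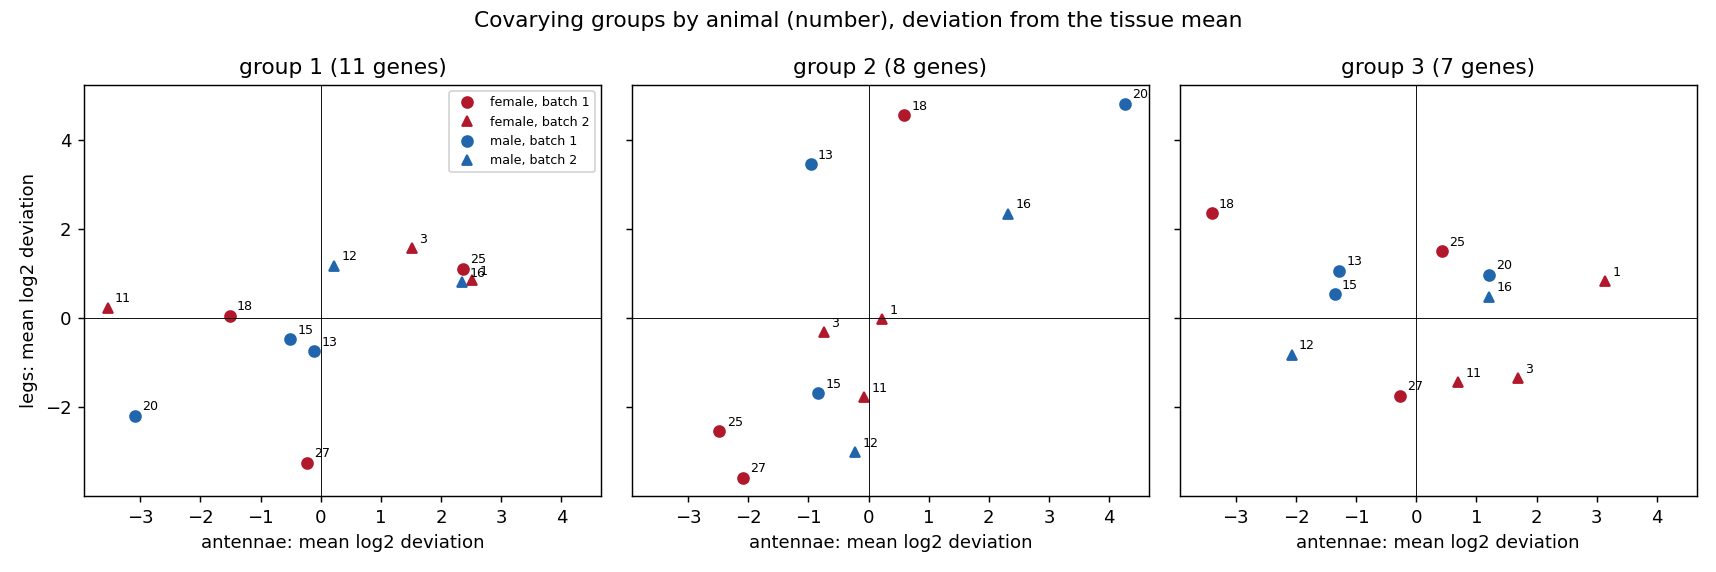
Mean log2 deviation from the tissue mean in antennae (x axis) and in legs (y axis) for the groups of 11, 8 and 7 genes that varied together; each point is 1 of the 11 animals with both tissues, with its number, coloured by sex, with a shape for the batch. In the group of 8 genes male 20 lies at 4.27 and 4.81 and male 16 at 2.32 and 2.34, while female 18 lies at 4.55 and male 13 at 3.46 in legs, with antennae at 0.59 and -0.96.

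Some members sat next to each other in the numbering of the gene models. For 34 of the 36 genes the next identifier was in the table, and it belonged to another member for 3 of them (8.82%), where the members make up 0.238% of all genes. The 3 pairs held 6 genes. In the pair DPOGS210455 and DPOGS210456 the count of the second was a median of 0.919 of that of the first in 21 libraries with at least 20 counts of the pair (range 0.600 to 1.00), and their r over antennae and legs was 0.997. How reads that fit several genes were counted is not given in the sources used here, so whether these genes share reads is uncertain, and they may not be independent measurements. In the pair DPOGS204901 and DPOGS204902 the ratio varied between 0 and 2.71 in 16 libraries (median 0.184), with an r of 0.841. In the remaining pair it varied between 0.0473 and 2.66 in 23 libraries (median 0.691), with an r of 0.621, and its genes fell in different covarying groups.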

How the data were processed

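RNA of antennae, legs and proboscis was sequenced from the numbered animals with a strand-specific messenger RNA kit and 100 ng of total RNA, as the labels' protocols state. The authors deposited raw counts per gene, whole numbers without scaling. The submitters' processing notes list featureCounts 1.5.2, HISAT2 2.0.5, limma and FastQC 0.11.5. Build, annotation, strand setting and multimapping treatment were not given in the sources used here. Of the 36 labelled samples 35 had counts.

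The 36 genes, the tests and the rule for naming genes were chosen with earlier results of these data known. Genes named were the 2 most abundant, the 2 with the largest ratio to proboscis and, per comparison, at most 2 called genes in each direction with the largest change or smallest p, or the smallest p where none was called; no gene is located.

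Tests used edgeR 4.0.16 under R 4.3.3 (TMM scaling, filterByExpr, quasi-likelihood test). Tissue contrasts and the interaction came from 1 fit of 35 libraries with the 6 groups of tissue and sex and the batch as terms, over 11804 genes; the filter removed 0.0391% of counts. Sex and batch were tested within each tissue, each with the other as a term, with filter and scaling within the tissue. Held-out tests applied the rule to 1 batch and fitted the 6 groups in the other. Benjamini-Hochberg adjustment ran over all genes tested, with calls at an adjusted p below 0.05; fold changes carry a standard error derived from the F statistic. Within a tissue the replicates are separate animals, so p-values for sex and batch measure the spread between animals. The tissue contrasts, the interaction and the held-out tests treat libraries of the same animal as independent. Their p-values therefore mix the spread within and between animals. Bounds use a floor of 3 counts over the group, and bounds and exact (Clopper-Pearson) intervals cover counting error only. The script was tested on simulated counts with the same spread setting for every gene and no link between libraries of an animal. That checks the code and does not show that the calls hold for these data.

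Each animal gave all tissues, so its number pairs the libraries. Over all genes tested, deviations from sex and batch means had a median r between tissues of the same animal of 0.165 for antennae and legs, 0.276 for antennae and proboscis and 0.374 for legs and proboscis. The fit had no animal term, and blocking on the animal was an alternative. Other alternatives were DESeq2 1.42.0, limma 3.58.1 voom, upper-quartile scaling, no filter, other pseudocounts, medians, single sexes and batches, and each animal left out. Chosen after seeing the data were the filter over 6 groups, leaving out the leg library of female 27, thinned leg libraries, and the rule within each sex. Covarying groups came from scipy 1.17.1 and figures from matplotlib 3.10.9.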

Additional observations from a re-analysis of the deposited data

Results flagged for a closer look

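The sex difference of DPOGS209204 was larger in legs than in antennae by 8.01 on the log2 scale (edgeR, adjusted p = 0.0176 over all genes tested). The adjusted p ran from 2.1e-07 to 0.523 over its 21 alternatives, and 6 of them lost the call. The gene met the rule in females alone and not in males alone. Its choice therefore rested in part on the female legs that this test compares, which limits what the p shows.

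Single libraries far from the others of their tissue and sex were looked for in the named genes, in 58 groups of 5 or 6 libraries. In 10 groups 1 library stood apart. Chance gives about 1 group in 20, but this rate does not hold for 6 of the 10, proboscis groups in which the other libraries had 0 counts, since a single library with a count always stands apart there. DPOGS210455 and DPOGS210456 have nearly the same values and are counted as separate groups. In legs of females, DPOGS201799 had 39.9 CPM in female 18, against 0.0876 to 0.969 CPM in the other 5. In legs of males, DPOGS204891 had 1097 CPM in male 2, against 4820 to 11683 CPM in the others. DPOGS210455 had 0.910 CPM in the legs of female 27, against 21.1 to 36.4 CPM in the other females, and DPOGS210456 had 0.827 CPM there, against 16.2 to 33.4 CPM.

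In proboscis the libraries that stood apart held few counts against 0 in the other libraries of the sex. DPOGS204901 had 0.0292 CPM in female 3 (1 count) and 0.499 CPM in male 12 (6 counts). DPOGS204902 had 0.117 CPM in female 3 (4 counts) and 0.0832 CPM in male 12 (1 count). DPOGS210455 and DPOGS210456 had 0.124 CPM each in female 25 (2 counts each).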

How the results depend on the processing

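For the named genes 378 of 404 alternative values kept direction and call, 25 lost the call and 1 changed sign: DPOGS209204, antennae over legs, was -1.72 in females alone. The rule kept 25 to 46 genes under other scalings, pseudocounts, averages and single batches, 34 to 39 with 1 animal left out, 51 in females alone and 31 in males alone. In males alone, 20 genes were called higher in antennae than in proboscis and 17 higher in legs; between antennae and legs 1 was called in females alone and 2 in males alone. The interaction and the sex difference in legs each gave 0 calls within batch 1 and 0 within batch 2. DESeq2 called 2 genes for sex in legs and 1 for batch in antennae. With limma voom the choice of batch 2 gave 8 called genes in batch 1, and 12 genes were called for batch in legs. The share over all genes is not given for these alternatives, so their counts are descriptions. The causes were not tested, and single sexes and batches have fewer libraries.

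With 1 animal left out, the count ran from 28 to 35 for antennae over proboscis, 33 to 35 for legs over proboscis, 2 to 7 for antennae against legs, 11 to 22 and 9 to 15 in the held-out tests of batch 2 and batch 1, 0 to 1 for the interaction, 1 to 1 for sex in legs, 6 to 12 for batch in legs and 0 to 1 for batch in antennae, where female 25 was the animal without which 1 gene was called. Paired by animal (replicate block), the counts were 31 for antennae over proboscis, 34 for legs over proboscis, 4 for antennae against legs, 1 for the interaction, and 20 and 15 in the held-out tests of batch 2 and batch 1. Among the named genes the block ended the call of DPOGS204902 between antennae and legs, and no other. Without the leg library of female 27 the rule kept 37 genes and 21 and 14 were called in the held-out tests. The shares over all genes are not given for the counts in this paragraph either, so they are descriptions. Depth limits the proboscis: 6 of the 36 genes had 10 or fewer counts there over 12 libraries.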
